A study of Homo sapiens with 4 samples.

Results

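The genes described here repair broken and crosslinked DNA and signal its damage. They are 35 genes of homologous recombination, of the Fanconi pathway and of the damage checkpoint, chosen by name from a list of symbols, and they were followed on 4 arrays of RNA from Nalm-6, a line of human pre-B leukemia cells. All 35 had at least 1 probe, out of 18203 genes with a probe that matched a gene symbol. There were 49 member probes, with 1 probe for 25 genes and several probes for 10 genes.

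Each of the 4 groups had 1 array with Cy3-labelled RNA, and the arrays were on 1 slide. WT was the parental Nalm-6 line. In Arp5 KO cells both alleles of ACTR5, the gene of actin-related protein 5, had been disrupted with targeting vectors, and 1 line was established. Arp8 KO was a line with a disrupted ACTR8, the gene of actin-related protein 8, and the array labelled Arp8 OE was described as Arp8 overexpression, by a method not given in the sources used here. Arp5 and Arp8 are subunits of INO80, a complex that moves and exchanges nucleosomes and has been linked to DNA repair. According to the treatment protocol, heme was added at 20 uM for 12 hours to induce oxidative stress. The labels conflict here. All titles state heme, but the treatment field says no heme for each knockout and the source field says so for Arp5 KO alone. Genotype and treatment therefore cannot be told apart in comparisons of the knockouts with WT or with the array labelled Arp8 OE. By the source field the same holds for the comparison of the knockouts with each other.

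Homologous recombination repairs a double-strand break by copying an intact sister sequence. The break is sensed by the MRE11, RAD50 and NBN complex, marked by phosphorylated H2AX, signalled by the kinases ATM and ATR, trimmed to single strands, and then prepared for strand exchange through BRCA1, PALB2 and BRCA2. The Fanconi pathway serves crosslinks between DNA strands: a core complex attaches ubiquitin to FANCD2 and FANCI, which brings in nucleases and the recombination proteins, and much of this set is transcribed most strongly in cycling cells.

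Levels are log2 of the background-subtracted processed signal over the array's 75th percentile, so a level of 0 equals that percentile. A difference is a log2 level minus the log2 level on the reference array. With 1 array per group no difference has a biological replicate, and no test was made. A difference was counted when it was past 1.5-fold (0.58 on the log2 scale). The technical SD of a difference was 0.083 on the log2 scale, taken from the spread within each array between spots of the probes printed on several spots. It does not hold variation of labelling or hybridization between arrays. Of the 49 member probes, 44 were well above background on all 4 arrays, 3 on some arrays and 2 on none, a probe each for ATM and RAD51B whose genes were measured by another probe. Where a probe failed this on 1 array of a pair, the difference is called a bound. A failing value above the array's lowest reliable level was kept as measured. The 75th percentile of the signal ranged from 647.4 to 739.6 over the arrays, and 55.8% to 57.4% of all probes were well above background.

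The targeted genes were examined before the members. The ACTR5 probe had levels of -0.13 on WT, -4.40 on Arp5 KO, -0.24 on Arp8 KO and -0.41 on the array labelled Arp8 OE. The ACTR8 probe A_23_P80694 had levels of -1.02, -1.11, -1.55 and -1.01 on the same arrays, and probe A_24_P131697 had 0.25, 0.01, -0.44 and 0.23. ACTR8 signal thus remained on the Arp8 KO array, 1.44-fold and 1.60-fold below WT, whereas ACTR5 was 19.3-fold below WT in Arp5 KO. The array labelled Arp8 OE differed from WT by 0.02 and -0.01 on the ACTR8 probes, so that this array did not show the higher ACTR8 level its label implies. All 12 B-lineage marker genes were well above background on the 4 arrays, whereas 1 of 5 T cell markers, 1 or 2 of 5 myeloid markers, 0 or 1 of 4 erythroid markers and 2 of 5 epithelial and fibroblast markers were. Some B-lineage genes differed strongly on the Arp8 KO array: against WT, CD22 was 5.99-fold, VPREB3 5.24-fold and VPREB1 2.39-fold lower, and DNTT 3.43-fold higher. In Arp5 KO VPREB3 was 2.32-fold lower. The array labelled Arp8 OE had DNTT 2.03-fold above WT. Its RAG1 probes A_24_P377895 and A_23_P360744 were 2.15-fold and 1.94-fold above WT. The part of such lineage differences in those of the members was not tested.

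The members as a set stayed close to WT in Arp5 KO cells and were somewhat lower in Arp8 KO cells and on the array labelled Arp8 OE. In RNA of whole cultures, fewer cells transcribing a gene and less of its RNA per cell cannot be told apart. Between Arp5 KO and WT, 0 of 47 member probes tested were past 1.5-fold in either direction, where 4.15% of all 24285 probes tested were higher and 4.69% lower. Their differences lay between -0.50 and 0.38, with a median of 0.03 beside 0.00 over all probes. Between Arp8 KO and WT, 7 of 46 member probes (15.2%) were lower past 1.5-fold, beside 11.2% of all 24578 probes, and 0 were higher, beside 10% of all probes. These 7 probes belonged to FANCC, FANCM, RAD54B, XRCC2 and FANCD2, the last with 3 probes. A dim probe that passes the filter only through its level on the WT array is favoured by the filter to be lower on the other. XRCC2 and 1 of the FANCD2 probes passed in this way. When both arrays had to be well above background, 5 were lower, beside 9.07% of 22400 probes. With normexp, another background correction, 4 were lower, beside 6.11% of all probes. The calls of FANCM, XRCC2 and the dim FANCD2 probe were then lost. The median of the member differences was -0.16, beside 0.03 over all probes, and 33 of 46 member probes (71.7%) lay below WT by any amount, beside 47.3% of all probes.

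**Figure D1:**
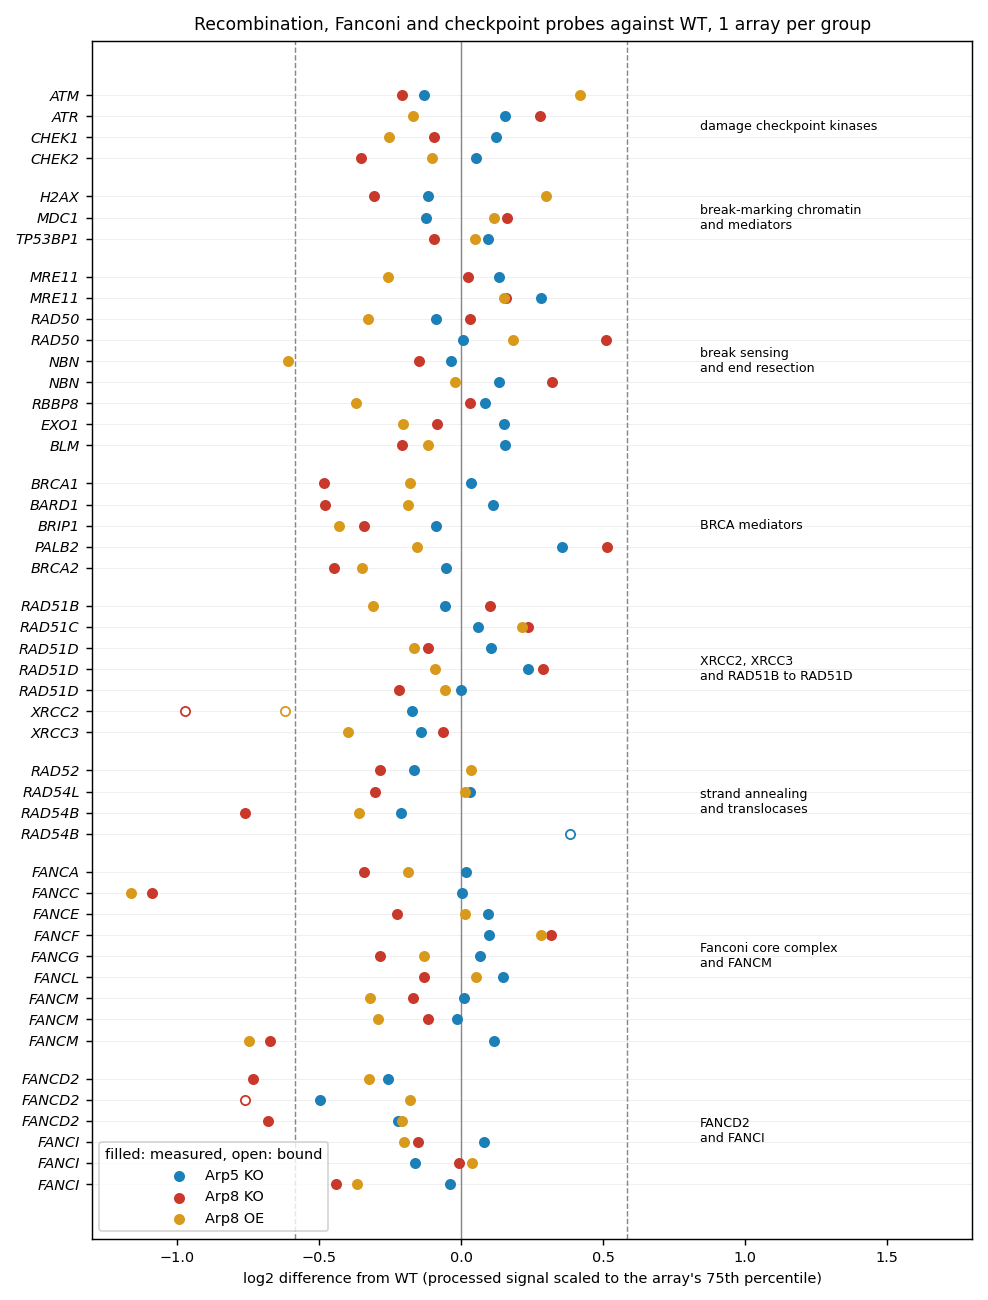
Log2 difference from WT (horizontal axis) of the 47 member probes that were well above background on at least 1 array, ordered by role, for Arp5 KO (blue), Arp8 KO (red) and the array labelled Arp8 OE (yellow), with 1 array per group and open circles for bounds. The dashed lines mark 1.5-fold: no blue point lies outside them, 7 red points lie below the lower line, and the points of FANCC for Arp8 KO and for the array labelled Arp8 OE stand furthest to the left.

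On the array labelled Arp8 OE, 4 of 46 member probes (8.70%) were lower than WT past 1.5-fold, beside 5.67% of all 24177 probes, and 0 were higher, beside 7.93%. They were probes of FANCC, FANCM, XRCC2 and NBN. XRCC2 again passed the filter only through WT, and with both arrays well above background 3 were lower, beside 4.05% of 22154 probes. The median was -0.18, beside 0.00 over all probes, and 33 of 46 lay below WT, beside 50% of all probes. When the knockouts were compared directly, without the WT array, 5 of 47 member probes (10.6%) were lower in Arp8 KO than in Arp5 KO past 1.5-fold, beside 7.84% of all 24440 probes, and 0 were higher, beside 6.9%. They were probes of FANCC, FANCM, BARD1, XRCC2 and RAD54B, the last pair being bounds of dim probes. In this comparison that pair passed the filter only through the Arp5 KO array, so the filter favours them to be lower in Arp8 KO. When both knockout arrays had to be well above background, 3 were lower, beside 5.997% of 22495 probes. Over the 47 probes the median was -0.22, beside 0.02 over all probes. Of them 35 (74.5%) were below Arp5 KO, beside 46.9% of all probes. By the source field the knockouts also differ in heme. The comparisons with WT share the WT array, so their agreement in direction is not independent.

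The order of the 4 arrays differed between the members and the rest of the array. Among the 44 member probes well above background throughout, the lowest of the 4 levels fell on the Arp8 KO array for 19 probes (43.2%, beside 28.7% of 21783 such probes) and on the array labelled Arp8 OE for another 19 (43.2%, beside 27.3%). The lowest level was on the WT array for 4 probes (9.09%, beside 26.3%) and on the Arp5 KO array for 2 (4.55%, beside 17.8%). The highest level was on the Arp5 KO array for 20 probes (45.5%, beside 16.3%), on the WT array for 10 (22.7%, beside 24.1%), on the Arp8 KO array for 10 (22.7%, beside 34%) and on the array labelled Arp8 OE for 4 (9.09%, beside 25.6%). The range over the 4 arrays was small for most members: its median was 0.38 on the log2 scale, beside 0.42 for all such probes, and its 90th percentile was 0.68, beside 0.96.

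Promoter sequences were examined because many repair genes are transcribed with the cell cycle, under E2F factors at the start of S phase and under the CCAAT box and the TTTGAA element later. RefSeq promoter windows of GRCh38.p14, from 250 bases before to 50 bases after each start, were found for 32 of the 35 genes and numbered 44. An E2F-like motif (TTTCCCGC, TTTCGCGC, TTTGCCGC or TTTGGCGC on either strand) was present in 5 of the 44 windows (11.4%), beside 3.31% of all 35116 windows. These were the windows of EXO1, FANCA, FANCC, FANCD2 and XRCC2. The 5 promoters are printed from 250 bases before to 30 bases after the start, 5′ to 3′ on the strand of the gene, with the motif in capitals as it reads on that strand.
FANCC, chr9:95317680-95317959, minus strand: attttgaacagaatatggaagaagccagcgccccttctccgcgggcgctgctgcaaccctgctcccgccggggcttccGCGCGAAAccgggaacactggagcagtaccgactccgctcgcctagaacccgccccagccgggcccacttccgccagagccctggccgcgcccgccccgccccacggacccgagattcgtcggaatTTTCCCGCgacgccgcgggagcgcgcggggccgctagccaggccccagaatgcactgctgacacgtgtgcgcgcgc
FANCD2, chr3:10026187-10026466, plus strand: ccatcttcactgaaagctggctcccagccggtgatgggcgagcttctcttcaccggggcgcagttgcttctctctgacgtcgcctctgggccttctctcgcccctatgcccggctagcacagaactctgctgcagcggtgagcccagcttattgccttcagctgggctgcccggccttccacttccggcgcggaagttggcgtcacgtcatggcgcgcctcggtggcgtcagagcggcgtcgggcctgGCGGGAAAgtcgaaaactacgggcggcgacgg
XRCC2, chr7:152676112-152676391, minus strand: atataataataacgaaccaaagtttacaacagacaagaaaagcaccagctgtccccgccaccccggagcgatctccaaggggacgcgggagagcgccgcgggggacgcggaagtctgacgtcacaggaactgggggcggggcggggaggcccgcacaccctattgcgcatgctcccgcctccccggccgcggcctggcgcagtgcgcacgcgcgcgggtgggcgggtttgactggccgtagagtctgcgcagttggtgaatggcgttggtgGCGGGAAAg
FANCA, chr16:89816618-89816897, minus strand: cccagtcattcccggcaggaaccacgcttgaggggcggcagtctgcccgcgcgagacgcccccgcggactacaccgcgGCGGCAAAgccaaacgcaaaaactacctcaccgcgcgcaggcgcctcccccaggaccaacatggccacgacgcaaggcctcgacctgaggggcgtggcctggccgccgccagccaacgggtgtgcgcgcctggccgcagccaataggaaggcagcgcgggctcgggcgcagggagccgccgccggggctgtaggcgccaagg
EXO1, chr1:241847954-241848233, plus strand: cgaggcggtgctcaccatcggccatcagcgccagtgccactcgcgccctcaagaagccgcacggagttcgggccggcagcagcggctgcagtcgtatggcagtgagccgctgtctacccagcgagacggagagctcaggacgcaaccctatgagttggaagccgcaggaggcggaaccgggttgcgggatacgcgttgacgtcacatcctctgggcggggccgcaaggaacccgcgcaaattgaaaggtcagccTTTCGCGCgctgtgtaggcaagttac
The FANCC window held 2 matches, TTTCCCGC as written and TTTCGCGC on the opposite strand, which reads GCGCGAAA, and each other window held 1. CCAAT on either strand was present in 20 of the 44 member windows (45.5%), beside 34.6% of all windows, and TTTGAA in 5 (11.4%), beside 15.2%. A match describes these letters and does not show that a factor binds them.

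Among the Fanconi core genes, FANCC stood apart. FANCC encodes a subunit of the core complex that ubiquitinates FANCD2, and its promoter is the one with 2 motif matches. FANCC had 1 probe, on a single spot per array. Its level was 0.97 on WT, 0.97 on Arp5 KO, -0.12 on Arp8 KO and -0.19 on the array labelled Arp8 OE. The WT and Arp5 KO arrays were level and the remaining arrays lay together well below them. Its Arp8 KO level was 2.13-fold below WT, and the level on the array labelled Arp8 OE was 2.24-fold below WT. With dim values held at the array's lowest reliable level, FANCC was the only member with a probe past 2-fold, in 3 of the 4 comparisons. Without filter and floor XRCC2, a bound, had a difference from WT of -1.34 in Arp8 KO and of -1.22 on the array labelled Arp8 OE. For Arp8 KO against Arp5 KO the dim RAD54B probe was then at -1.46 and XRCC2 at -1.16. The count that follows keeps the floor, and its only probe is that of FANCC. In Arp8 KO against WT it is 1 of 46 probes lower past 2-fold and 0 higher, beside 4.35% and 3.37% of all probes. On the array labelled Arp8 OE it is 1 lower and 0 higher, beside 2.15% and 2.96%. Between the knockouts it is 1 lower and 0 higher, beside 3.18% and 2.53%, and in Arp5 KO against WT 0 lower and 0 higher, beside 2.01% and 1.69%. The difference between Arp8 KO and the array labelled Arp8 OE was 0.07, within the technical SD.

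FANCM, a translocase that recognises stalled forks and anchors the core complex on DNA, had 3 probes that did not move alike. Probe A_32_P79504 had levels of -2.59 on WT, -2.48 on Arp5 KO, -3.27 on Arp8 KO and -3.34 on the array labelled Arp8 OE. This probe followed the pattern of FANCC, with its Arp8 KO level 1.60-fold below WT and that of the array labelled Arp8 OE 1.68-fold below WT. The other FANCM probes differed from WT by -0.12 and -0.17 in Arp8 KO and by -0.29 and -0.32 on the array labelled Arp8 OE, so the gene's change past 1.5-fold rests on 1 of its 3 probes.

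The remaining core genes FANCA, FANCE, FANCF, FANCG and FANCL, subunits of the same ubiquitin ligase with FANCL as its catalytic member, each had 1 probe and none passed 1.5-fold. In Arp5 KO their differences from WT lay between 0.02 and 0.15. In Arp8 KO they were -0.34 for FANCA, -0.29 for FANCG, -0.23 for FANCE, -0.13 for FANCL and 0.32 for FANCF, which was higher. Over the 9 core and FANCM probes the median difference in Arp8 KO was -0.23, with 8 of 9 probes below WT, beside the 47.3% of all probes given above. Their median was -0.19 on the array labelled Arp8 OE, with 6 of 9 below WT, beside 50%.

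FANCD2 was lower in Arp8 KO cells on each of its 3 probes. FANCD2 is the ubiquitinated platform on which the Fanconi pathway converges, and it binds DNA as a pair with FANCI. Probe A_32_P24165 had levels of 2.60 on WT, 2.38 on Arp5 KO, 1.92 on Arp8 KO and 2.39 on the array labelled Arp8 OE. Probe A_23_P143994 gave 0.58, 0.32, -0.16 and 0.25 on the same arrays. On both probes Arp8 KO was lowest and WT highest, with Arp5 KO and the array labelled Arp8 OE between them. The Arp8 KO level was 1.60-fold below WT on the former and 1.66-fold below WT on the latter. In Arp5 KO these probes were lower than WT by 0.22 and 0.26 on the log2 scale.
The dim probe A_23_P345678 had levels of -4.40 on WT, -4.90 on Arp5 KO and -4.58 on the array labelled Arp8 OE and was not well above background on the Arp8 KO array, which makes it at least 1.70-fold lower there than in WT. Under normexp its difference was -0.25, short of 1.5-fold. Its single spot lay next to one whose brightness on 1 array exceeded the others by over 2-fold (called a bright spot here), and the part of that neighbour in this value was not tested. FANCI, the partner of FANCD2, had 3 probes with Arp8 KO differences of -0.44, -0.15 and -0.01 from WT, none past 1.5-fold. The Arp5 KO differences of FANCI lay between -0.16 and 0.08.

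**Figure D2:**
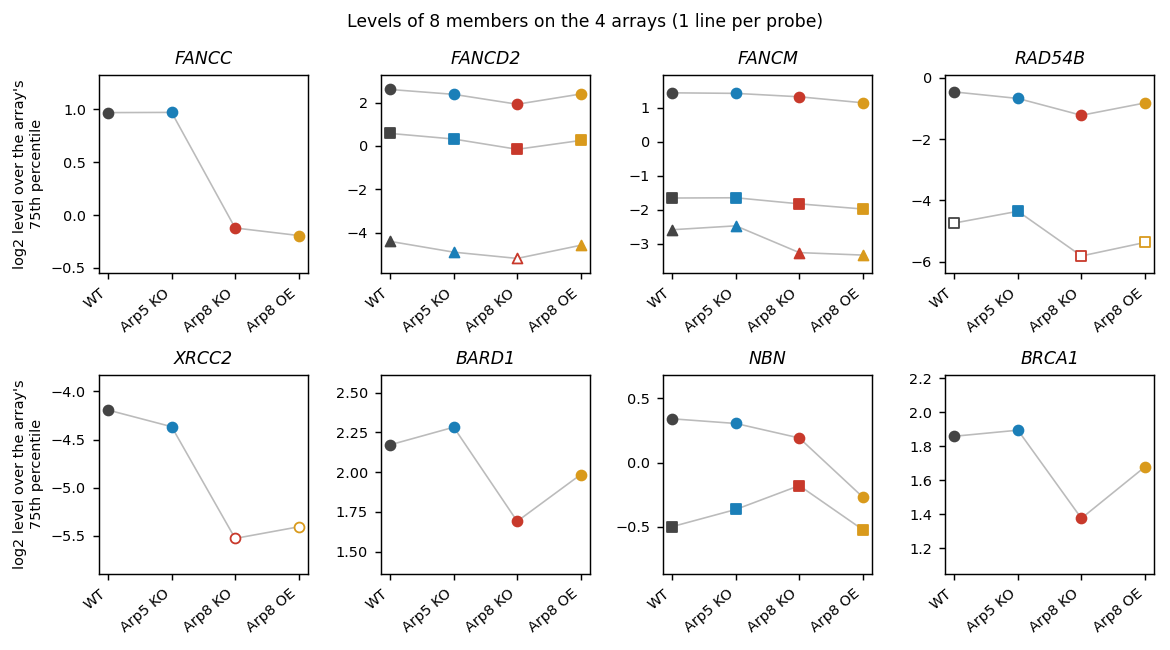
Log2 level over the array's 75th percentile (vertical axis) of 8 members for WT, Arp5 KO, Arp8 KO and the array labelled Arp8 OE, with 1 line per probe and open symbols where the probe was not well above background. FANCC and the lowest line of FANCM drop together for Arp8 KO and the array labelled Arp8 OE, whereas both brighter FANCD2 lines and the brighter RAD54B line are lowest on the Arp8 KO array alone.

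The BRCA1 group acts on resected DNA before strand exchange. BRCA1, a ubiquitin ligase that directs resection and recruits PALB2, was measured on 10 spots per array, and its level was 1.86 ± 0.064 on WT, 1.90 ± 0.068 on Arp5 KO, 1.38 ± 0.052 on Arp8 KO and 1.68 ± 0.052 on the array labelled Arp8 OE (SD between 10 spots of 1 array, log2 scale). Arp8 KO was lowest, and none of its spots overlapped those of WT: its highest spot was at 1.44 and the lowest WT spot at 1.74. The difference of Arp8 KO from WT was -0.48 with an SE of 0.026 between spots, or 1.40-fold, which did not reach 1.5-fold. Of its spots, 2 lay beside a bright spot.
BARD1, the obligate partner of BRCA1, had levels of 2.17 on WT, 2.28 on Arp5 KO, 1.69 on Arp8 KO and 1.99 on the array labelled Arp8 OE. The partners thus ran in the same order of arrays. The Arp8 KO level of BARD1 was 1.40-fold below WT and 1.51-fold below Arp5 KO, just past the threshold in the direct comparison of the knockouts.

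BRCA2, a large mediator that acts on resected single-stranded DNA, was dim but measured on 9 or 10 usable spots per array. Its level was -2.92 ± 0.083 on WT and -2.98 ± 0.093 on Arp5 KO (SD between 9 spots), and -3.37 ± 0.049 on Arp8 KO and -3.27 ± 0.052 on the array labelled Arp8 OE (SD between 10 spots). WT and Arp5 KO overlapped in their spots, and both other arrays lay below WT without overlap. The difference from WT was -0.45 with an SE of 0.032 for Arp8 KO. It was -0.35 with an SE of 0.032 for the array labelled Arp8 OE. Under normexp the Arp8 KO difference was -0.21. Over the alternative ways of processing, still against WT, that of the array labelled Arp8 OE ranged from -0.39 to -0.13. PALB2, the bridge between BRCA1 and BRCA2, went the other way, with a difference from WT of 0.35 for Arp5 KO and 0.51 for Arp8 KO. BRIP1, a helicase bound to BRCA1, differed from WT by -0.34 in Arp8 KO and by -0.43 on the array labelled Arp8 OE. In Arp8 KO, 4 of these 5 genes were below WT (beside 47.3% of all probes), with a median of -0.45, and none of the 5 passed 1.5-fold.

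RAD54B and RAD54L are ATP-driven translocases that help strands invade the sister duplex, and RAD52 anneals single strands. The 10-spot probe of RAD54B had levels of -0.46 ± 0.084 on WT, -0.68 ± 0.067 on Arp5 KO, -1.22 ± 0.046 on Arp8 KO and -0.82 ± 0.086 on the array labelled Arp8 OE (SD between 10 spots). Arp8 KO was lowest without overlap with either WT or Arp5 KO. Its Arp8 KO level was 1.69-fold below that of WT (log2 difference -0.76 with an SE of 0.030 between spots). The dim probe of RAD54B was well above background on the Arp5 KO array alone, at -4.35. There it was 1.30-fold above its WT value of -4.74, which was not reliable and so gives no lower limit. With the floor it was at least 1.76-fold higher than in Arp8 KO. Under normexp its Arp5 KO difference from WT was 0.14. Over the alternative ways of processing, its difference of Arp8 KO from Arp5 KO ranged from -1.46 to -0.21. RAD54L and RAD52 differed from WT by -0.30 and -0.29 in Arp8 KO and by 0.03 and -0.17 in Arp5 KO.

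RAD51B, RAD51C, RAD51D, XRCC2 and XRCC3 form small complexes that assist strand exchange. XRCC2 was near the detection limit, with levels of -4.19 on WT and -4.37 on Arp5 KO, and it was not well above background on the Arp8 KO array or on the array labelled Arp8 OE. With the floor used here it was lower than in WT by at least 1.96-fold in Arp8 KO and by at least 1.54-fold on the array labelled Arp8 OE. Each array had a single spot of it. Over the alternative ways of processing, still against WT, its difference ranged from -1.34 to -0.23 in Arp8 KO. On the array labelled Arp8 OE it ranged from -1.22 to -0.19, so these minima depend on the processing. The other genes of these complexes had 6 probes well above background, with differences from WT between -0.14 and 0.24 in Arp5 KO, between -0.22 and 0.29 in Arp8 KO and between -0.40 and 0.21 on the array labelled Arp8 OE. Of the 7 probes tested, 4 were below WT in Arp8 KO (beside 47.3% of all probes), with a median of -0.07, and 6 on the array labelled Arp8 OE (beside 50%), with a median of -0.17.

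**Figure D3:**
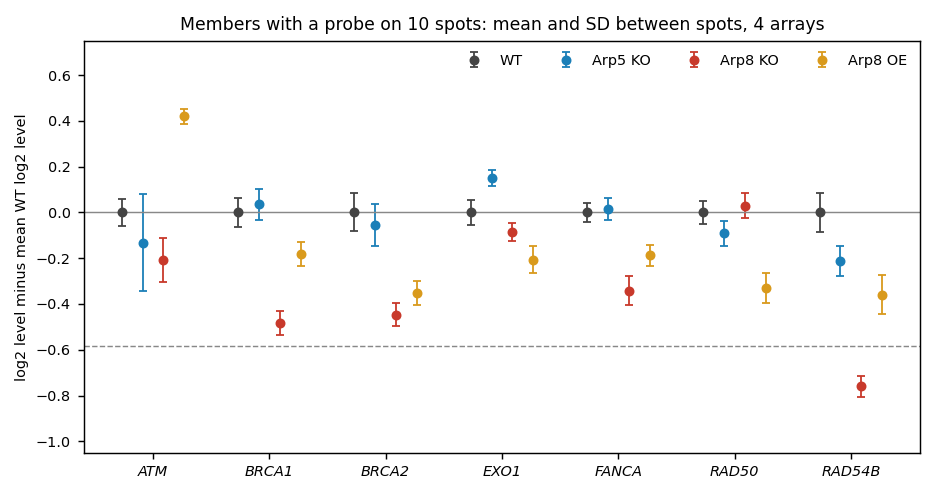
Mean log2 level minus the mean WT log2 level (vertical axis) of the 7 members with a probe on 10 spots, for the WT (grey), Arp5 KO (blue) and Arp8 KO (red) arrays and the array labelled Arp8 OE (yellow), with bars for the SD between spots of 1 array and a dashed line at 1.5-fold below WT. The Arp5 KO points lie between -0.21 and 0.15. The Arp8 KO points of ATM, BRCA1, BRCA2, FANCA and RAD54B fall below their WT points beyond the bars. ATM is highest on the array labelled Arp8 OE.

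The 7 members measured on 10 spots (ATM, BRCA1, BRCA2, EXO1, FANCA, RAD50 and RAD54B) give the smallest technical error, and their SD between spots ranged from 0.034 to 0.211 on the log2 scale. Between Arp5 KO and WT the spots of all 7 overlapped, whereas 28.7% of the 181 such probes on the whole array did not overlap. Between Arp8 KO and WT the spots of BRCA1, BRCA2, FANCA and RAD54B did not overlap, each lower in Arp8 KO. This is 4 of 7, beside 59.3% of 182 probes. On the array labelled Arp8 OE the spots of 5 of 7 did not overlap those of WT, beside 50.3% of 179, with BRCA2, FANCA, RAD50 and RAD54B lower and ATM higher. Between Arp8 KO and Arp5 KO 5 of 7 did not overlap, beside 54.1% of 181. Non-overlap of spots of 1 array concerns the printing and scanning of that array and not the spread between cultures.

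The genes that sense and trim breaks were mostly unshifted in Arp8 KO cells. MRE11 and RAD50 form the nuclease and tether at the break, RBBP8 activates the nuclease, and EXO1 and BLM extend resection. Over the 9 probes of these genes and NBN the median difference from WT was 0.13 in Arp5 KO, 0.03 in Arp8 KO and -0.21 on the array labelled Arp8 OE. RAD50 had discordant probes in Arp8 KO, with a difference of 0.03 on the 10-spot probe and of 0.51 on the dimmer probe. MRE11 differed from WT by 0.02 and 0.16 in Arp8 KO on its 2 probes, and RBBP8, EXO1 and BLM by 0.03, -0.08 and -0.21.
NBN, the subunit that recruits ATM, differed between its probes. Probe A_23_P251480 had levels of 0.34 on WT, 0.30 on Arp5 KO, 0.19 on Arp8 KO and -0.27 on the array labelled Arp8 OE. The last was 1.53-fold below WT. Probe A_24_P278126 had levels of -0.50, -0.37, -0.18 and -0.52 on the same arrays and did not show that drop, with a difference of -0.02 on the array labelled Arp8 OE.

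Transcripts of the checkpoint kinases differed less than 1.5-fold from WT on every array. ATM, the kinase for double-strand breaks, was measured on 10 spots at -2.50 ± 0.058 on WT, -2.63 ± 0.211 on Arp5 KO, -2.71 ± 0.098 on Arp8 KO and -2.08 ± 0.034 on the array labelled Arp8 OE (SD between 10 spots). The array labelled Arp8 OE was highest and did not overlap WT, with a difference of 0.42 and an SE of 0.021 between spots. ATR, the kinase for single-stranded DNA, had levels of 1.45 on WT, 1.61 on Arp5 KO, 1.73 on Arp8 KO and 1.28 on the array labelled Arp8 OE, on a single spot that lay beside a bright spot. The ATR order was thus the reverse of the one seen for ATM.
CHEK1, the kinase downstream of ATR, had levels of 2.95 on WT, 3.07 on Arp5 KO, 2.85 on Arp8 KO and 2.69 on the array labelled Arp8 OE. CHEK2, the kinase downstream of ATM, had levels of 0.42, 0.47, 0.07 and 0.32 on the same arrays and its Arp8 KO level was 1.28-fold below WT. Neither kinase was past 1.5-fold in any of the 4 comparisons.

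Of the proteins that mark the break, the histone H2AX had levels of 5.11 on WT, 4.99 on Arp5 KO, 4.80 on Arp8 KO and 5.41 on the array labelled Arp8 OE, on a single spot beside a bright spot. Arp8 KO was lowest and the array labelled Arp8 OE highest, with differences from WT of -0.31 and 0.30. MDC1, which reads phosphorylated H2AX, and TP53BP1, which restrains resection, differed from WT by 0.16 and -0.10 in Arp8 KO and by -0.13 and 0.09 in Arp5 KO.

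Further genes of these pathways were taken from a list of 49 genes, with 65 probes tested against WT. In Arp5 KO 1 of them was higher and 2 lower past 1.5-fold (beside 4.15% and 4.69% of all probes), with a median difference of 0.01. In Arp8 KO 1 was higher and 5 were lower (beside 10% and 11.2%), with a median of -0.09. For the array labelled Arp8 OE the counts were 0 higher and 1 lower (beside 7.93% and 5.67%), with a median of -0.14. HUS1, part of the clamp that activates ATR, had levels of -0.89 on WT, -1.97 on Arp5 KO, -2.12 on Arp8 KO and -1.08 on the array labelled Arp8 OE, so that it was low on both knockout arrays, 2.12-fold and 2.34-fold below WT. RMI2, a partner of BLM, had levels of 2.84, 2.71, 1.71 and 3.06 and was low on the Arp8 KO array alone, 2.18-fold below WT.

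Cell cycle and p53 genes also differed in Arp8 KO, and their part in the members' differences was not tested. All 15 probes of the G2 and mitosis genes were below WT in Arp8 KO (beside 47.3% of all probes), with a median difference of -0.46. Of them 3 were past 1.5-fold, beside 11.2%. All 15 were also below WT in Arp5 KO (beside 49.3%), with a median of -0.15 and 0 past 1.5-fold, beside 4.69%. The median of these genes on the array labelled Arp8 OE was -0.01. For the 19 probes of S phase genes the medians were 0.05 in Arp5 KO, -0.15 in Arp8 KO and -0.09 on the array labelled Arp8 OE. MCM2, a subunit of the replicative helicase, was lower past 2-fold in both knockouts, with a difference from WT of -1.63 for Arp5 KO and -1.49 for Arp8 KO.
Most p53 targets were higher in Arp8 KO: 20 of 30 probes passed 1.5-fold and 17 passed 2-fold, beside 10% and 3.37% of all probes. Below WT were 2 probes, both of BAX. The median difference of the 30 probes was 1.16, beside 0.14 in Arp5 KO and 0.47 on the array labelled Arp8 OE. CDKN1A, the inhibitor of cyclin-dependent kinases, was higher in Arp8 KO by 1.95 and 1.48 on the log2 scale on its probes. The targets with a probe past 2-fold in Arp8 KO also included MDM2, BBC3, PHLDA3, ZMAT3, SESN1, FAS, TP53INP1, XPC, PLK3 and TNFRSF10B. Other probes of MDM2 were 1.61-fold and 1.28-fold higher, and the brightest BBC3 probe was 1.12-fold higher.

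**Figure D4:**
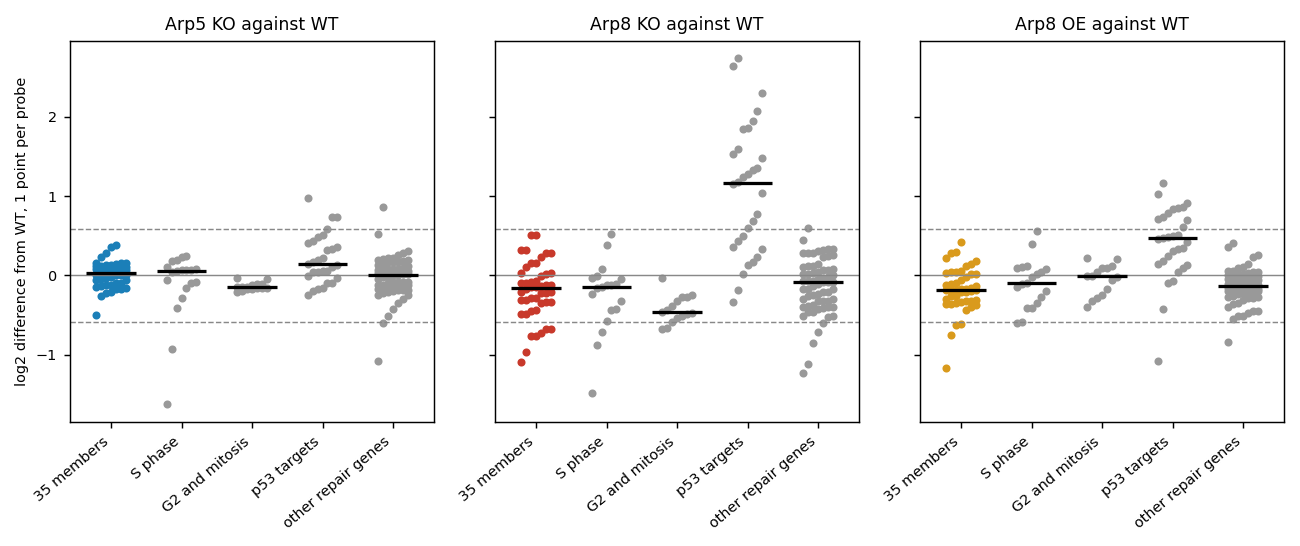
Log2 difference from WT (vertical axis, 1 point per probe) of the 35 members and of 4 other gene lists in Arp5 KO, Arp8 KO and on the array labelled Arp8 OE, with a black line at each median and dashed lines at 1.5-fold. In Arp8 KO the members lie around a median of -0.16, the G2 and mitosis genes around -0.46 and the p53 targets around 1.16. In Arp5 KO the medians of the members, S phase genes and other repair genes lie near 0, with single points of the latter lists far from it.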

How the data were processed

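The arrays were one-colour Agilent arrays with Cy3-labelled total RNA. The authors deposited scanner output as linear intensity, and per the file headers it came from Agilent Feature Extraction 10.10.1.1. Its processed signal has the background subtracted and is not normalized between arrays. The authors' series matrix holds the same intensity times 1 factor per array, between 1.99 and 2.29.

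Each log2 processed signal was scaled by subtracting the log2 75th percentile of the 43376 spots on its array that were not controls. Outlier spots were left out and spots of a probe averaged. To count as well above background a probe needed this flag on 50% or more of its spots. Probes passing on 1 or both arrays were compared. On an array where it failed, a compared probe kept its own value or, if that was lower, took the array's lowest value among probes well above background. Of 41000 probes, 27210 (66.4%) matched a RefSeq symbol by accession.

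No test was possible with 1 array per group. Members and lists were chosen with earlier results of these data known. A member was named with all its values where a probe passed 1.5-fold in any comparison or where it was BRCA1, BRCA2, ATM, ATR, CHEK1, CHEK2, H2AX or FANCD2. Genes of other lists were named where past 2-fold in a knockout, with RAG1 added for the array labelled Arp8 OE and BAX for its lower probes. A gene of the related pathways is not reported here. The calculation was tested on simulated data. Alternatives were the array median, quantile and cyclic loess scaling, normexp (offset 50, limma 3.58.1 in R 4.3.3), the series matrix, other filters, gene means, a 2-fold threshold, probes not beside a bright spot (adjacent within 20 pixels), and the array labelled Arp8 OE as reference. Other steps used Python 3.11.15 with pandas 2.3.3.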

Additional observations from a re-analysis of the deposited data

How the results depend on the processing

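Of 122 recomputed medians and counts, 106 stayed within the technical SD or within 1.5 times the count. Apart from the change of reference, the median of the member differences ranged from 0.015 to 0.061 for Arp5 KO against WT, from -0.21 to -0.14 for Arp8 KO against WT, from -0.22 to -0.15 for the array labelled Arp8 OE against WT and from -0.23 to -0.19 for Arp8 KO against Arp5 KO. Under normexp, the lower probes numbered 4 for Arp8 KO against WT (7 in the values reported), 1 for the array labelled Arp8 OE (4) and 1 for Arp8 KO against Arp5 KO (5), the last count being 3 when both arrays had to be well above background. With the mean over a gene's probes, 4 genes were lower in Arp8 KO and 2 on the array labelled Arp8 OE. At 2-fold, 1 probe was lower in each of these 3 comparisons. Without filter and floor, 1 probe was lower in Arp5 KO (0), beside 8.50% of all probes, and 1 higher on the array labelled Arp8 OE (0), beside 8.39%. With the array labelled Arp8 OE as reference, the median became 0.24 in Arp5 KO with 2 probes higher (0), and 0.022 in Arp8 KO with 1 higher and 2 lower. FANCC and FANCM A_32_P79504 then changed sign in Arp8 KO, to 0.071 and 0.073. No share of all probes was computed for this reference or for the gene means. Of 643 recomputed differences of single probes, 578 moved by less than the technical SD. The change of reference moved or reversed 35 and normexp moved 25. Under normexp, in Arp8 KO against WT the difference became -0.23 for XRCC2, -0.21 for BRCA2, -0.34 for FANCM A_32_P79504 and -0.25 for FANCD2 A_23_P345678. The cause was not tested. No paired analysis was possible because each group has 1 array. Signal over background limits XRCC2 and the dim FANCD2 and RAD54B probes, and 1 array per group limits every difference.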
